A study of Homo sapiens with 12 samples.

Results

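Splicing was scored in cassette-exon events from RNA of MCF10A, a human mammary epithelial cell line that does not form tumours. Described here are the 15 events, of 8712 listed in any library, whose middle exon is an annotated exon of 7 genes of cell adhesion: ITGA6 (3 events), ITGB1 (1), ITGB4 (2), LAMA3 (1), FN1 (4), DCN (3) and MMP28 (1). The genes were chosen by symbol, and each event was placed on its gene by exact match of the middle exon to GENCODE. All cells carried 1 of 3 stable constructs: the empty MSCV vector, a wild-type TIP60 that the siRNA cannot target, or a catalytically dead TIP60 that it cannot target either. Cells of each line were transfected with a control siRNA or one against TIP60, and RNA was taken after 72 h. This gave 6 groups of 2 libraries, 12 libraries in all. TIP60 is the lysine acetyltransferase encoded by KAT5. The labels do not say whether the 2 libraries of a group came from separate cultures, so p-values measure the spread between these libraries, which may be technical.

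Integrins are receptors made of an alpha and a beta chain that tie cells to the extracellular matrix. The alpha6 chain pairs with beta4 in hemidesmosomes of basal epithelium, where it binds laminin-332, and also pairs with beta1. Fibronectin is a matrix protein bound by several integrins, decorin is a small proteoglycan that binds collagen, and MMP28 (epilysin) is a secreted metalloproteinase of epithelia. Transcripts of ITGA6, ITGB1 and FN1 are classical cases of regulated splicing, in which a cassette exon changes the cytoplasmic tail of the receptor or adds a domain to the ligand.

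The sequences of the exons the results turn on follow, from GENCODE release 29 transcripts on GRCh38, read 5′ to 3′ on the strand of the gene. For ITGA6, the cassette exon and the exon after it are shown because they give alternative tails. The 130-nt exon at chr2:172501772-172501901 on the plus strand holds the stop codon of the form with the exon, known as alpha6A, and is shown from its start to that stop, in capitals. Without it, translation goes on into the downstream exon and ends at the stop shown there in capitals, which gives alpha6B.
ITGA6 cassette exon to its stop: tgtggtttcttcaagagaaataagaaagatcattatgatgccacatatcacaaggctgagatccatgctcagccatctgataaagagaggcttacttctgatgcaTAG
ITGA6 downstream exon to its stop: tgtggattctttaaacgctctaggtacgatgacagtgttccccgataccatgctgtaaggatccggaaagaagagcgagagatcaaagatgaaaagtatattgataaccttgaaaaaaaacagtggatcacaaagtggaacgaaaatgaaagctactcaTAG
ITGA6 joint without the exon, with the downstream 15 bases in capitals: tttatactatggaagTGTGGATTCTTTAAA

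For FN1, 3 exons on the minus strand of chromosome 2 are shown because each adds a separate segment to the protein. The 273-nt exon at chr2:215392931-215393203 encodes the extra domain B (EDB), and the 270-nt exon at chr2:215380811-215381080 encodes the extra domain A (EDA). The 267-nt exon at chr2:215372109-215372375 belongs to the variable region, whose first 75 bases, in capitals, hold the CS1 segment and are absent from the 192-nt form at chr2:215372109-215372300.
FN1 EDB: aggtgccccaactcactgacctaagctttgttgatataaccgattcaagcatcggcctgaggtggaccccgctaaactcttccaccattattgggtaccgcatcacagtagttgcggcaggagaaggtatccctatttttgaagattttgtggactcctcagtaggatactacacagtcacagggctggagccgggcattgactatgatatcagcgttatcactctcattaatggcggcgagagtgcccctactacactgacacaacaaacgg
FN1 EDA: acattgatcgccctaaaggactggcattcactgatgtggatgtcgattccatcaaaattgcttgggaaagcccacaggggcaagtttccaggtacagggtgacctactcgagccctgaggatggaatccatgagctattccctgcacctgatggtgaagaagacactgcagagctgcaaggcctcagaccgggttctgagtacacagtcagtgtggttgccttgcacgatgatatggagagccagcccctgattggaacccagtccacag
FN1 variable region: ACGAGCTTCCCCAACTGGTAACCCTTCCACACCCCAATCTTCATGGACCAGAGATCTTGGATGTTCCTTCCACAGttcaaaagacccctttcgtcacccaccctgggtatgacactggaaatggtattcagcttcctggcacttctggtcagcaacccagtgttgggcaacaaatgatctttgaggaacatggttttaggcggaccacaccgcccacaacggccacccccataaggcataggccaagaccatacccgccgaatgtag

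The exons of ITGB1 and MMP28 are shown because both hold a stop codon, in capitals, and both were almost always left out. The 81-nt ITGB1 exon at chr10:32907063-32907143 on the minus strand gives the muscle form of the beta1 tail, beta1D. The 63-nt MMP28 exon at chr17:35766973-35767035 on the minus strand ends the reading frame early. The joint without the exon is given too, because nearly all isoform-specific reads of both events fit only that form.
ITGB1 cassette exon to its stop: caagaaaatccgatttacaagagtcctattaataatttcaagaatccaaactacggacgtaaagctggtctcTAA
ITGB1 joint without the exon, downstream bases in capitals: gccaaatgggacacgGGTGAAAATCCTATT
MMP28 cassette exon to its stop: tgcaatccgttTGA
MMP28 joint without the exon, downstream bases in capitals: tctacttcttcaaagGGGGTCGATGCTGGA

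Of the other events, the 132-nt and 117-nt exons of ITGA6 (chr2:172470974-172471105 and chr2:172472774-172472890) neighbour each other. The 210-nt and 159-nt exons of ITGB4 lie at chr17:75753765-75753974 and chr17:75755055-75755213, and the 168-nt LAMA3 exon lies at chr18:23899288-23899455. All of these are coding. The DCN exons of 114 nt (chr12:91157075-91157188) and 113 nt (chr12:91164605-91164717) are coding, and the 325-nt exon (chr12:91179362-91179686) is in the 5′ UTR. Genes on the opposite strand overlap the events of the 130-nt ITGA6 exon (AC078883.1), both ITGB4 exons (GALK1) and the MMP28 exon (TAF15). Overlap was judged over the whole event, from the upstream to the downstream exon with the introns, and not for the cassette exon alone. Whether the counting used strand is not given in the sources used here, so reads of such partners cannot be told apart. The library kit was a stranded one.

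Both an inclusion level and an amount were used. The inclusion level is the MISO posterior mean, from 0 (exon always left out) to 1 (always kept). The amount of an event is given as its event reads (reads that fit at least 1 form) per 1000000 event reads of the library (RPM); it covers only the exons of the event and is not a gene count. Libraries numbered 1 held 1983221 to 2280488 event reads, and libraries numbered 2 held 1277953 to 1566296. The sets also differed in the share of reads that fit neither form, at 50.1% to 53.2% in set 1 and 64.5% to 65.7% in set 2. Deviations of libraries with the same number moved together, so each comparison is given without and with the number as a block, and values are given by pair of same line and number. Inclusion was tested where every library held at least 10 isoform-specific reads (reads fitting only 1 form), which kept 9 of the 15 events and 2695 in all. Event reads were tested for all 15 events among 4992.

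KAT5 was checked first. RPM of its form with the cassette exon was 5.31 to 17.2 in the 6 libraries with control siRNA and 0 to 3.95 in the 6 with TIP60 siRNA, and it was lower in each of the 6 pairs. The form without the exon stood at 885 to 2291 RPM in the set 1 libraries of the construct lines and at 28.2 to 93.0 in set 2, against 0 to 8.38 in empty-vector cells. The sets thus also differed in reads of this form in the construct lines; its part in the results below was not tested. Of 11 markers of basal mammary epithelium, 6 had a listed event, with a summed RPM of 1430 to 3048 under control siRNA and 1603 to 3542 under TIP60 siRNA; ITGA6, ITGB4 and LAMA3 are among them. Of 12 general epithelial markers, 4 had a listed event, with a summed RPM of 1238 to 4183 under control siRNA and 748 to 2548 under TIP60 siRNA. Over the 12 libraries SPINT2 had 210 to 3315 RPM, whereas CDH1, CLDN7 and ESRP1 reached at most 211, 541 and 429. The sum thus leans on SPINT2. The part of these markers in the results was not tested.

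The 130-nt exon of ITGA6 was left out more often under TIP60 siRNA. In empty-vector cells, inclusion in libraries 1 and 2 was 0.90 and 0.96 with control siRNA, against 0.57 and 0.80 after TIP60 siRNA. With the wild-type construct it was 0.89 and 0.94 under control siRNA against 0.78 and 0.88. With the dead construct it was 0.89 and 0.96 against 0.53 and 0.68. Every library with TIP60 siRNA lay below every library with control siRNA (0.53 to 0.88 against 0.89 to 0.96), and inclusion was lower in 6 of 6 pairs.

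**Figure D1:**
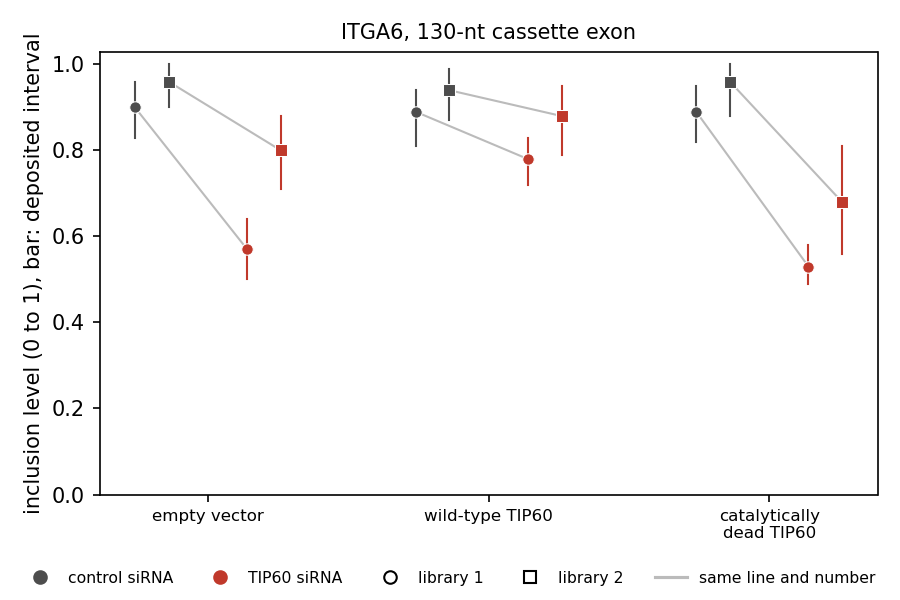
Inclusion level of the 130-nt ITGA6 exon (0 to 1) by cell line. Each point is a library, bars span the deposited interval, and lines join libraries of the same line and number; inclusion is lower with TIP60 siRNA in 6 of 6 pairs, and the lowest value is 0.53 in dead-construct library 1.

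Averaged over the 3 lines, inclusion differed by -0.22 (SE 0.048) without a block, which missed the threshold (limma, adjusted p = 0.0877). With the block the SE was 0.026 and the adjusted p was 0.0135. ITGA6 was then the 1 member event called of 9 tested, where 4.27% of all events were called; without the block, no member was called, against 2.15% of all events. Leaving out 1 library at a time under the block kept the call in 11 of 12 cases. It was lost without dead-construct control-siRNA library 1 (adjusted p = 0.0506).

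By line, the difference was -0.25 (SE 0.083) in empty-vector cells, -0.09 in wild-type cells and -0.32 in dead-construct cells. Leaving out 1 library moved these values between -0.36 and -0.13, -0.135 and -0.035, and -0.395 and -0.245. None of these passed with limma, without a block (adjusted p = 0.529, 1 and 0.349) or with it (0.127, 0.731 and 0.0604). A quasi-binomial model of the isoform-specific reads with the block gave differences in log2 odds of inclusion, TIP60 siRNA minus control siRNA. They were -3.10 in empty-vector cells (adjusted p = 0.0179), -1.28 in wild-type cells (adjusted p = 0.162) and -3.39 in dead-construct cells (adjusted p = 0.00934). That model called 2.37%, 0.891% and 3.08% of all events in the same lines. The siRNA effect in wild-type cells minus that in empty-vector cells was 0.16 (SE 0.12), and that in dead-construct cells minus that in wild-type cells was -0.235 (SE 0.12). Without 1 library, the first ran from 0.045 to 0.275 and the second from -0.31 to -0.16. The limma adjusted p was 1 for both, without a block and with it. With the block the unadjusted p were 0.0429 and 0.00928. A smaller effect in wild-type cells was thus not established over all events.

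Reads of the 2 forms were also compared. Reads that fit only the form without the exon were 6 and 0 in empty-vector cells with control siRNA, against 52 and 14 after TIP60 siRNA. They were 7 and 2 against 31 and 5 in wild-type cells, and 6 and 0 against 139 and 14 in dead-construct cells. In RPM, that form went from 2.79 and 0 to 26.2 and 10.6 in empty-vector cells, from 3.53 and 1.33 to 14.2 and 3.34 in wild-type cells, and from 2.89 and 0 to 61.0 and 11.0 in dead-construct cells. The form with the exon stood at 77.9 to 131 RPM with control siRNA and at 88.4 to 246 with TIP60 siRNA, and was higher in 5 of 6 pairs, from 115 to 246 in dead-construct library 1; in wild-type library 2 it went from 109.6 to 108.2.

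Event reads of the same exon stood at 134 and 100 RPM in empty-vector cells with control siRNA and at 180 and 174 after TIP60 siRNA. They were 156 and 111 against 247 and 112 in wild-type cells, and 130 and 77.9 against 347 and 99.4 in dead-construct cells. All 6 pairs were higher, by ratios of 1.01 to 2.67, but the groups overlapped. The average log2 difference was 0.61 (SE 0.36, limma adjusted p = 0.677), with an adjusted p of 0.0793 with the block. Scaled by median ratios instead of total event reads, with the block, it was 0.72 and passed (adjusted p = 0.0194).

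Of the other ITGA6 events, the 132-nt exon had an inclusion level of 0.67 to 0.99, lowest in empty-vector TIP60-siRNA library 1 (deposited interval 0.48 to 0.90), and the 117-nt exon of 0 to 0.01. The 132-nt exon had 2219 reads with the exon and 0 without in the 12 libraries together, and the 117-nt exon had 4 reads with it and 2254 without. A count of 0 of 2219 allows a share of up to 0.135% of isoform-specific reads, counting error only. The form scored without the 132-nt exon joins the upstream exon to the 117-nt exon, which was itself almost never used. Transcripts lacking both exons would not count as that form, so the 0 sets no limit on them. Neither was called for inclusion (differences of -0.03 and 0.00, limma adjusted p = 0.991 and 0.986).

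By a rule on likeness of pattern, the 3 events of other genes whose inclusion, centred within each set, correlated best with that of the 130-nt ITGA6 exon over the 12 libraries were those of HNRNPC (26 nt, Pearson r = 0.968), DIAPH1 (27 nt, r = 0.926) and PSMA6 (95 nt, r = 0.922). These are descriptions over 2498 events compared. Inclusion of the HNRNPC exon was 0.78 to 0.81 with control siRNA and 0.65 to 0.75 with TIP60 siRNA. For the DIAPH1 exon it was 0.97 to 0.99 and 0.74 to 0.94. For the PSMA6 exon it was 0.98 to 1 and 0.95 to 0.99, so that these ranges overlapped. No likeness is given for the MMP28 exon, which had 0 reads with the exon in each control library, nor for the ITGB1 exon, whose inclusion was constant.

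By inclusion level, the cassette exons of the integrin beta chains were left out of nearly all transcripts. The muscle exon of ITGB1 had inclusion 0 in each of the 12 libraries, with 0 of 13308 isoform-specific reads carrying it, which allows a share of up to 0.0225%. Of 5 muscle markers, 1 had a listed event, MYH11, at up to 2.0 RPM; DES, ACTA1, MYOD1 and TTN have no listed event, which does not bear on their expression. The 159-nt exon of ITGB4 had an inclusion level of 0 to 0.01. Its 210-nt exon stood at 0 to 0.01 in set 1 and 0.02 to 0.06 in set 2, so that the sets did not overlap. Over the 12 libraries, 2537 of the 25007 isoform-specific reads of that event carried the exon. In wild-type control-siRNA library 2, which had the highest level, 691 of 3659 did. Limma called neither ITGB4 exon, with or without the block. For the 210-nt exon, the quasi-binomial model with the block gave a difference in log2 odds of -0.56 averaged over the lines (adjusted p = 0.00369). The difference was -0.75 in empty-vector cells (adjusted p = 0.0447) and -1.02 in wild-type cells (adjusted p = 0.012). The inclusion level was lower in 3 pairs and equal to 2 decimals in 3. That model called 13.8% of all events on average, 2.37% in empty-vector cells and 0.891% in wild-type cells.

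ITGB1 reads were lower with TIP60 siRNA in every pair. RPM in empty-vector cells was 8292 and 4447 with control siRNA, against 5004 and 2546 after TIP60 siRNA. In wild-type cells it was 6610 and 3570 against 4071 and 2037, and in dead-construct cells 7139 and 3972 against 3805 and 2414. Set 1 was higher than set 2 in each group. The 6 pair ratios lay between 0.533 and 0.616, with a geometric mean of 0.583.

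The average difference in log2(RPM + 0.5) for ITGB1 was -0.78 (SE 0.32), which missed the threshold without a block (limma, adjusted p = 0.415) and passed with it (SE 0.076, adjusted p = 0.000552). The median over all 4992 events was -0.10. With the block the call also held by line in empty-vector cells (-0.77, adjusted p = 0.0181) and dead-construct cells (-0.81, adjusted p = 0.0204). In wild-type cells the value was -0.75 (adjusted p = 0.111). The call in empty-vector cells was lost without either of that line's control-siRNA libraries, its TIP60-siRNA library 1, or either control-siRNA library of the dead construct. The call in dead-construct cells was lost without any of that line's 4 libraries or either wild-type TIP60-siRNA library. Both were also lost with median-ratio scaling and the block (-0.65 and -0.67, adjusted p = 0.178 and 0.171), which kept the average call (-0.67, adjusted p = 0.00832). With the block, the siRNA effects differed by 0.01 (SE 0.19, wild-type minus empty-vector) and -0.06 (SE 0.19, dead minus wild-type), and neither passed (adjusted p = 0.999 and 1.00).

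Laminin alpha3 and integrin beta4 reads did not pass. LAMA3, a chain of the laminin-332 that the alpha6beta4 receptor binds, had inclusion between 0.98 and 1 in all libraries. Its RPM ranged from 171 to 963 and was higher in 3 of 6 pairs and lower in 3. The 210-nt ITGB4 event had 667 to 3151 RPM, and both ITGB4 events were lower with TIP60 siRNA in both wild-type pairs and higher in both dead-construct pairs. Neither gene was called with or without the block, and the difference between lines was not called either.

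MMP28 showed the largest difference in reads of the 15 events. RPM in empty-vector cells was 35.8 and 65.0 with control siRNA, against 411 and 630 after TIP60 siRNA. In wild-type cells it was 94.8 and 62.4 against 217 and 286. In dead-construct cells it was 94.3 and 69.6 against 645 and 1143. All libraries with TIP60 siRNA (217 to 1143) lay above all with control siRNA (35.8 to 94.8), with pair ratios between 2.29 and 16.4 and a geometric mean of 7.12.

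**Figure D2:**
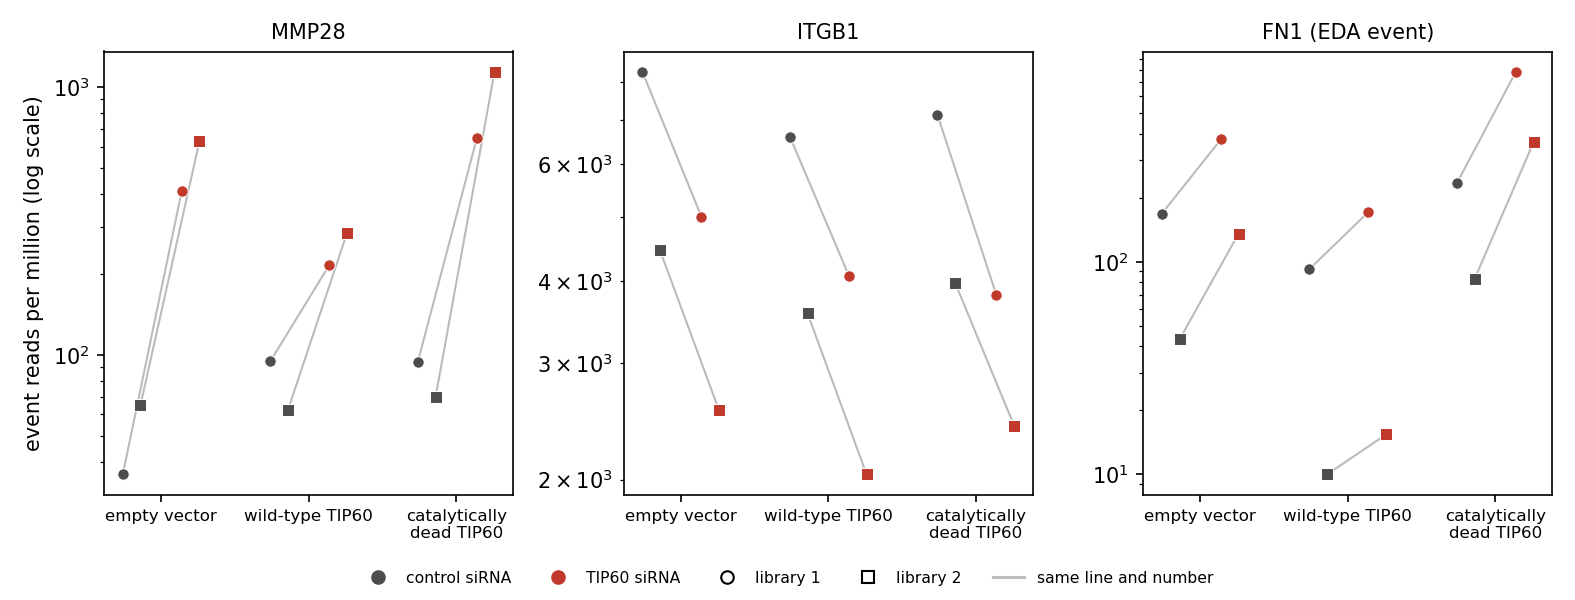
RPM (log axis) of MMP28, ITGB1 and the FN1 EDA event by cell line and siRNA. Points are libraries and lines join those of the same line and number; MMP28 is higher with TIP60 siRNA in 6 of 6 pairs and ITGB1 lower in 6 of 6, while FN1 is higher in 6 of 6 and spans 9.96 to 785 RPM.

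The average difference was 2.82 on the log2 scale (SE 0.27), which limma called without a block (adjusted p = 0.00746). MMP28 was the 1 member called of 15, where 0.741% of all events were called. Leaving out 1 library at a time gave adjusted p of 0.0157 to 0.0533, and the call was lost without wild-type TIP60-siRNA library 2. With the block, 5 of 15 members were called (MMP28, ITGB1 and the 192-, 267- and 270-nt FN1 events), where 16.8% of all events were. MMP28 then had an adjusted p of 0.000116 and kept its call in 12 of 12 left-out fits.

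By line, MMP28 reads differed by 3.38 in empty-vector cells, 1.69 in wild-type cells and 3.40 in dead-construct cells. Without a block, none passed (adjusted p = 0.136, 1.00 and 0.131), and no event of the 4992 was called in any of these 3 comparisons (0%), against 238, 94 and 233 at an unadjusted p under 0.05. With the block, the first and last passed (adjusted p = 0.00399 and 0.00302) and the value in wild-type cells did not (adjusted p = 0.185). The shares of all events called with the block were 3.08%, 0.02% and 2.84%, and in both lines where members were called they were MMP28 and ITGB1. Effects differed by -1.70 (SE 0.66) for wild-type minus empty-vector and by 1.71 (SE 0.66) for dead minus wild-type. These had unadjusted p of 0.0301 and 0.029, or 0.00905 and 0.00863 with the block, and adjusted p near 1; a difference between lines was thus not established. In dead-construct cells, the call was lost without control-siRNA library 2 (adjusted p = 0.0613).

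The 63-nt exon of MMP28 was left out of nearly all transcripts in every group. Its inclusion was 0.01 to 0.04 with control siRNA and 0 to 0.02 with TIP60 siRNA, and 4 reads of 1336 isoform-specific ones carried it, all in libraries with TIP60 siRNA. The levels above 0 in control libraries thus rest on no read with the exon. Reads that fit only the form without the exon, whose joint is shown above, were 15 and 19 in empty-vector control libraries and 180 and 160 with TIP60 siRNA. They were 47 and 19 against 103 and 76 in wild-type cells, and 39 and 28 against 335 and 311 in dead-construct cells. The difference in inclusion was -0.02 (limma, adjusted p = 0.449). An event of the same exon length and spacing on an alternate contig of chromosome 17 had an RPM of 94.2 to 214 with control siRNA and 405 to 1650 with TIP60 siRNA. Reads of the gene may be split between the copies, so the level of MMP28 is uncertain.

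Fibronectin reads varied widely between libraries of 1 group. RPM of the EDA event was 169 and 43.1 in empty-vector cells with control siRNA, against 377 and 136 after TIP60 siRNA. It was 92.3 and 9.96 against 171 and 15.4 in wild-type cells, and 235 and 83.0 against 785 and 366 in dead-construct cells. The lowest values were those of wild-type library 2, and each pair was higher with TIP60 siRNA. The average log2 difference was 1.36 (SE 0.79, limma adjusted p = 0.662), or with the block SE 0.30 and adjusted p = 0.0153. The call with the block was lost without wild-type control-siRNA library 2 or dead-construct control-siRNA library 1.

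The other FN1 events had average differences of 1.31 (267 nt), 1.15 (192 nt) and 0.77 (273 nt). With the block the adjusted p were 0.0442, 0.0407 and 0.199, and without it 0.807, 0.945 and 0.896. The call for the 267-nt event was kept in 4 of 12 fits that left out 1 library (empty-vector or dead-construct TIP60-siRNA library 1, wild-type TIP60-siRNA library 2 or wild-type control-siRNA library 1) and lost in the others. That for the 192-nt event was kept in the first 3 of these and lost in the others. Both share their flanking exons and the reads without the exon, and all 4 events come from 1 gene. Of 16 mesenchyme and fibroblast markers, 5 had a listed event, with a summed RPM of 61.8 to 368 under control siRNA and 177 to 988 under TIP60 siRNA. Of these, FN1 and DCN are themselves members, and ZEB1, ZEB2 and FAP stood between 0 and 11.8 RPM. The part of such cells in the FN1 values was not tested. In bulk samples, a change in the number of cells of a type and a change in RNA per cell cannot be told apart.

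**Figure D3:**
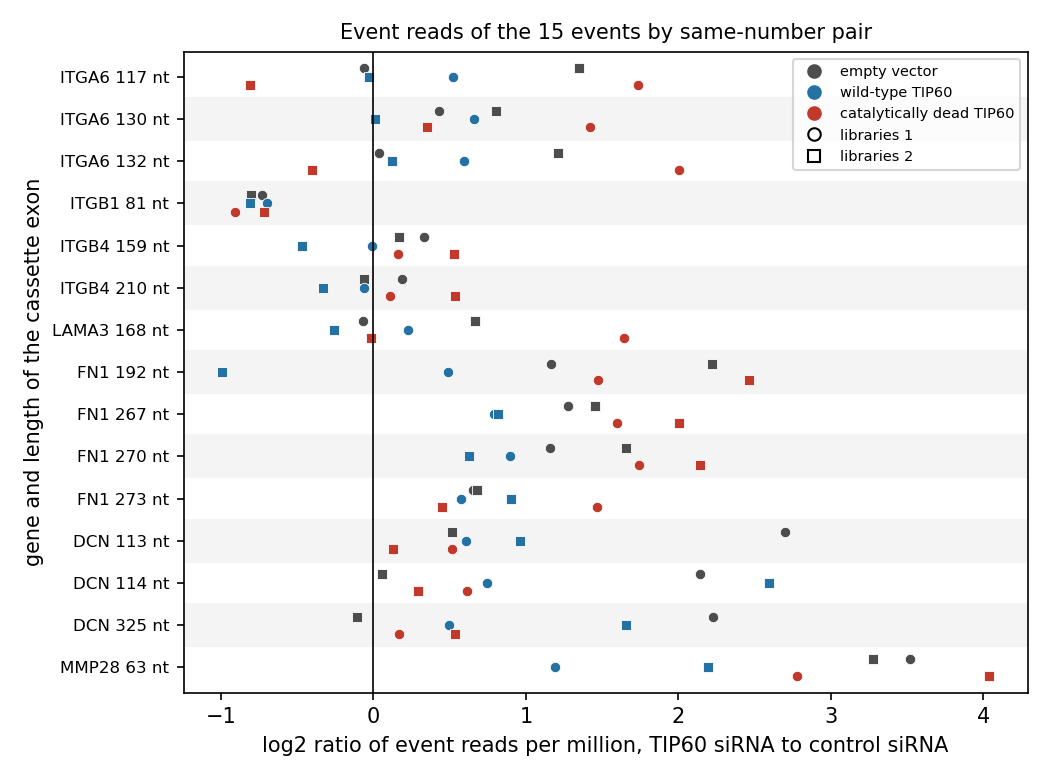
Log2 ratio of RPM, TIP60 siRNA to control siRNA, for each of the 15 events and 6 same-number pairs. Colours mark the cell line and shapes the library number; MMP28 is above 0 in 6 of 6 pairs and ITGB1 below 0 in 6 of 6.

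Fibronectin splicing was read in the extra domain B exon, described here because of its values and not by the rule for named genes. Its inclusion was 0.09 and 0.16 in empty-vector cells with control siRNA, against 0.04 and 0.01 after TIP60 siRNA. It was 0.15 and 0.08 against 0.03 and 0.03 in wild-type cells, and 0.10 and 0.10 against 0.02 and 0.03 in dead-construct cells. Values with TIP60 siRNA (0.01 to 0.04) lay below all with control siRNA (0.08 to 0.16). The wild-type library 2 pair rests on no read with the exon, with 0 of 7 isoform-specific reads under control siRNA (deposited interval 0.01 to 0.27) and 0 of 13 under TIP60 siRNA, so its direction has no read behind it. The event missed the read minimum because of those 7 reads.

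Fitted with no read minimum, the average difference for EDB was -0.09 (SE 0.018), which did not pass without the block (limma, adjusted p = 0.0876) or with it (adjusted p = 0.0674). Fits with the block that left out 1 library gave adjusted p of 0.042 to 0.161. In RPM, reads without the exon were higher with TIP60 siRNA, going from 49.8 to 93.7 and 19.7 to 62.2 in empty-vector cells, from 32.3 to 72.2 and 4.65 to 8.68 in wild-type cells and from 87.5 to 324 and 44.1 to 76.7 in dead-construct cells. Reads with it went from 16.8 to 12.6 and 18.3 to 3.03 in empty-vector cells, from 20.7 to 6.86 in wild-type library 1, and from 36.5 to 19.3 and 20.4 to 11.0 in dead-construct cells; wild-type library 2 had 0 under both siRNAs.

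The EDA exon had no common direction over the pairs. Its inclusion was 0.54 and 0.48 against 0.63 and 0.75 in empty-vector cells, 0.48 and 0.76 against 0.37 and 0.81 in wild-type cells, and 0.34 and 0.81 against 0.56 and 0.73 in dead-construct cells. It was higher in 4 pairs and lower in 2, one of the higher pairs, wild-type library 2, having 0 reads without the exon under both siRNAs, with an average difference of 0.07 (SE 0.11, limma adjusted p = 0.973). The variable-region exon of 267 nt had an inclusion of 0.66 to 0.96. It was lower with TIP60 siRNA in the 3 pairs of set 1, where reads without the exon went from 3 to 18, 1 to 5 and 1 to 15, and higher in the 3 pairs of set 2, where no library had a read without it. In the same libraries the 192-nt event stood at 0.57 to 0.93. It is scored against leaving the exon out and not against the 267-nt form. Its level is thus not the share of transcripts without CS1. In set 2 the 192-nt event had 1 to 45 isoform-specific reads per library. Both events rest on 43 reads without the exon in all and were not tested for inclusion.

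**Figure D4:**
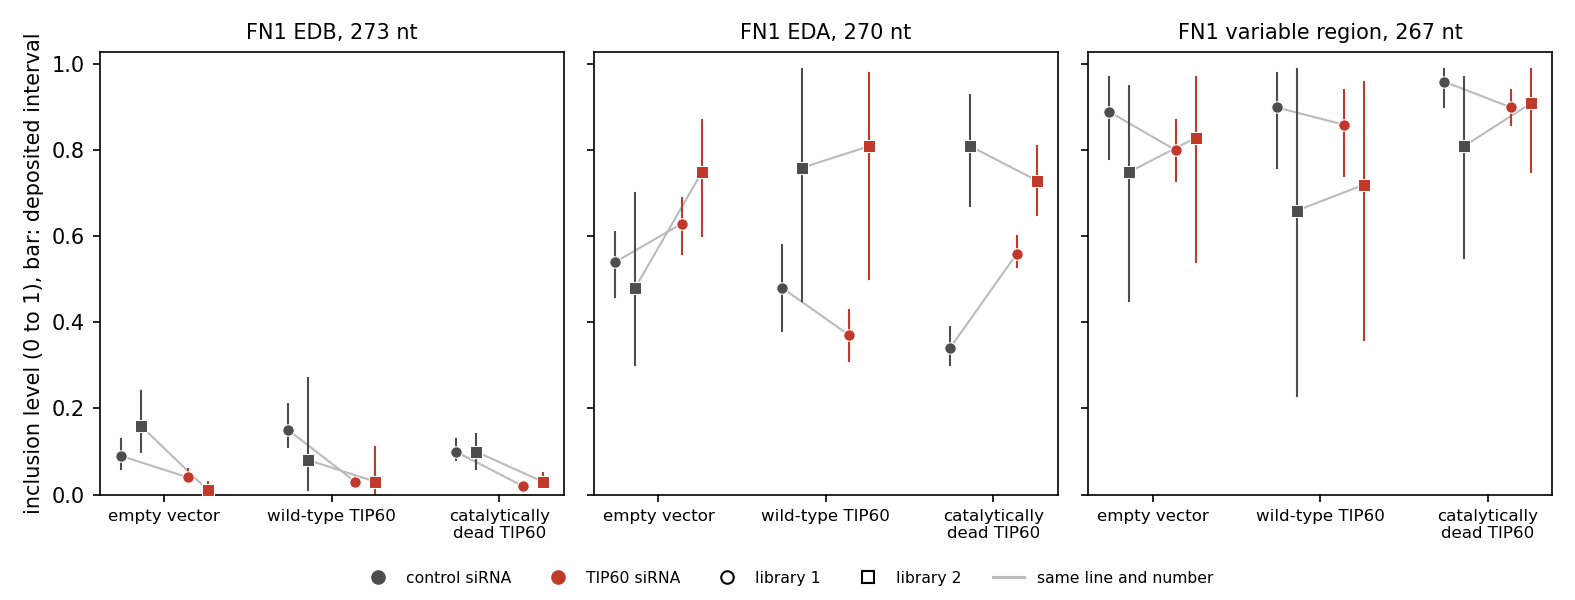
Inclusion level (0 to 1) of 3 FN1 exons by cell line; bars span the deposited interval and lines join libraries of the same line and number. EDB is lower with TIP60 siRNA in 6 of 6 pairs and EDA is higher in 4 and lower in 2, but the wild-type library 2 pair, with wide intervals, has 0 reads with the EDB exon and 0 without the EDA exon.

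Decorin had the fewest reads. The 113-nt event was higher with TIP60 siRNA in 6 of 6 pairs, at 6.98 to 65.4 RPM against 16.7 to 93.4, the 114-nt event in 6 and the 325-nt event in 5. For the 114-nt event, the empty-vector library 2 pair held 1 event read under each siRNA. Its dead-construct library 2 pair held 4 under each, so in these pairs only the library totals set the direction. Average log2 differences were 0.88, 0.94 and 0.80, and none passed with the block (limma, adjusted p = 0.101, 0.0747 and 0.192). The value of the 325-nt event ran from 0.04 to 1.56 when 1 library was left out. The 325-nt exon of the 5′ UTR was included at 0.17 to 0.44 in set 1 and at 0.97 to 0.99 in set 2, so that the library sets and not the groups parted it. Inclusion of the 114-nt exon was 0.41 to 0.76, on deposited intervals at least 0.37 wide.

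No member was called between constructs under control siRNA, for inclusion or event reads, with or without the block, and of all events 0% were (limma). At an unadjusted p under 0.05, without a block, 43 and 23 of 2695 events (wild-type and dead construct against empty vector) passed for inclusion and 10 and 0 of 4992 for event reads. For inclusion by line, 0.0371%, 0% and 0.0371% of events were called without a block in empty-vector, wild-type and dead-construct cells, and 0.148%, 0.148% and 0.371% with it, with no member among them. In wild-type cells, where none was called without a block, 116 events had an unadjusted p under 0.05. No event was called by limma for the differences of the siRNA effect between lines (0%); at an unadjusted p under 0.05, 46 (wild-type minus empty-vector) and 32 (dead minus wild-type) passed for inclusion and 11 and 12 for event reads.

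Other genes of these families were read from lists. Among 24 integrin genes, ITGA3, ITGB2 and ITGB6 had tested events besides the members, and none was called. Of 11 events in 6 other matrix genes, none passed without a block, and with it, where 16.8% of all events were called, 3 passed: ECM1 rose (log2 difference 0.91, adjusted p = 0.0235) while FBLN1 (-1.59, adjusted p = 0.000636) and AGRN (-0.81, adjusted p = 0.018) fell. FBLN1 encodes fibulin-1, a matrix glycoprotein, and AGRN encodes agrin, a basement-membrane proteoglycan. Of 12 events in 5 other protease and inhibitor genes, 1 was called with the block: BMP1, a procollagen protease, fell (-0.78, adjusted p = 0.0423). The median difference over these other matrix events was -0.61 and over these other protease events -0.47, against -0.10 over all events. Events of the members, given above, are not in these 2 list medians and so they do not describe the whole families.

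Among 38 events in 18 adhesion adaptor and receptor genes, 2 rose and 6 fell with the block, where 16.8% of all events were called, and none was called without it. A GIT2 event (0.93) and PXN (0.77), which encodes paxillin, rose. The 138- and 101-nt PTK2 events (-0.84 and -1.46), PTK2B (-0.71), FERMT2 (-1.37) and the 72- and 111-nt DST events (-0.80 and -0.70) fell. Levels were low in some libraries. The 101-nt PTK2 event had 12.4 to 69.6 RPM with control siRNA and 0.783 to 36.1 with TIP60 siRNA. FERMT2 had 6.64 to 44.7 and 0.668 to 20.6. A 78-nt PTK2 event was also tested and was not called. PTK2 encodes focal adhesion kinase and FERMT2 encodes kindlin-2. The list's median was -0.42. In inclusion, the 111-nt exon of DST differed by -0.08 with the block (limma, adjusted p = 0.0314). It was the 1 called event among 23 in 14 genes of this list, where 4.27% of all events were called.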

How the data were processed

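Libraries were made from 12 MCF10A samples with a stranded mRNA kit, per the labels' protocols, and aligned with STAR to hg38, per the submitters' processing notes; no MISO version is stated in the sources at hand. The authors deposited, per the file headers, the MISO posterior mean inclusion level as a fraction with its interval, and other columns of reads per class.

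Computed here were isoform-specific reads, RPM and, with limma 3.58.1 in R 4.3.3, group means over 6 groups (trended, robust empirical Bayes, two-sided, Benjamini-Hochberg over all events, threshold 0.05); event reads were log2(RPM + 0.5). The number as a block, quasi-binomial reads, log2 odds, read ratios, other filters, scaling and leaving out each library were alternatives. Exons came from GENCODE 29. Fits of the average siRNA comparison with the block were checked on simulated data that held no difference between the library sets. Fits without the block and the other comparisons were not checked in this way.

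Deviations of same-number libraries correlated at 0.706 to 0.779 over 15 pairs for inclusion and 0.583 to 0.896 for event reads, so the numbers pair the libraries; the labels do not say what they mark. Members and lists were chosen with earlier results of these data known. Described singly were each gene's event with the most isoform-specific reads, the exons named with the members, and any event past the threshold; the FN1 EDB exon was added after its values were seen. Differences of the siRNA effect on event reads, the blocked fits without 1 library, and the blocks with no minimum, log2 odds or median-ratio scaling were added after seeing the data. Scaling by median ratio moved the median of all events by 0.11 on the log2 scale.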

Additional observations from a re-analysis of the deposited data

How the results depend on the processing

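Counts of called events depended on the replicate block and on single libraries. For inclusion, the calls of 1, 0, 1 and 58 (empty-vector, wild-type, dead-construct, average) became 4, 4, 10 and 115 with the block, 64, 24, 83 and 373 with the quasi-binomial model and the block, and 3, 3, 12 and 136 with no read minimum and the block. With log2 odds and the block, the empty-vector, dead-construct and average counts were 9, 28 and 214. Without a block, no read minimum gave 0 in empty-vector cells and 30 on average, log2 odds and the libraries of the comparison alone each gave 0 in empty-vector and 0 in dead-construct cells, and quasi-binomial reads gave 2 and 3. At least 20 reads gave 2 in dead-construct cells. Read ratios gave 5, 2 and 12 by line, 2 and 5 between constructs, and 3 and 6 for the differences between lines; the quasi-binomial model with the block gave 2 for wild-type against empty vector. Among the 9 members tested, the quasi-binomial model with the block called 2, 1, 1 and 2. Its shares of all events were 2.37%, 0.891%, 3.08% and 13.8%. Log2 odds with the block called 1 in empty-vector cells, 1 in dead-construct cells and 1 on average, against 0.334%, 1.04% and 7.94%. On average the block called 1 with the read minimum and 1 of 15 without it, against 4.27% and 2.72%. For event reads, 0, 0, 0 and 37 calls became 154, 1, 142 and 837 with the block and 99, 1, 102 and 768 with median-ratio scaling and the block; median-ratio scaling alone gave 16. Members called with the block were 2, 2 and 5 (empty-vector, dead-construct, average), and with median-ratio scaling and the block 1, 1 and 6. The cause of these moves was not tested.

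Leaving out 1 library gave 0 to 7, 0 to 2, 0 to 8 and 7 to 34 inclusion calls, 0 to 11 event-read calls on average and 0 to 1 member among them. Reversed in sign were differences near 0. The ITGA6 130-nt inclusion of wild-type against empty vector under control siRNA ran from -0.045 to 0.015 without 1 library, with 0.015 and 0.021 under the block, and of dead construct against empty vector from -0.04 to 0.03, with 0.025 and 0.019 under the block. The FN1 EDA difference ran from -0.005 to 0.152, and the MMP28 inclusion difference was 0.00564 with read ratios. The block changed no other member's call beyond those given with the results. Depth limits the DCN exons and the FN1 variable region, whose intervals are wide.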
